A study of Mus musculus with 24 samples.

Results

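The lung meets inhaled compounds with enzymes that oxidise, hydrolyse, and conjugate them. The 7 genes described here encode enzymes of the first of these steps. They are 4 cytochrome P450s (Cyp1a1, Cyp1b1, Cyp2b10, and Cyp4b1), 2 flavin-containing monooxygenases (Fmo1 and Fmo2), and 1 carboxylesterase (Ces1d). They were chosen by name, with earlier results of these data known, from a table of 55421 mouse gene identifiers. All 7 were in the table, and all 7 were among the 18046 genes that passed the filter on low counts and were tested.

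Alveolar type 2 cells (AEC2s), the surfactant-producing progenitors of the alveolar epithelium, were isolated from Krt8+/+ mice (labelled WT) and from global Krt8-/- mice (labelled KO), which lack the intermediate filament protein keratin 8 in all cells. RNA-Seq was performed on freshly isolated cells (day 0) and on cells grown in 2D culture, in which AEC2s pass through a transitional state toward an AEC1-like state, for 1, 3, and 7 days. No other allele or agent is named for any group. The labels give 3 batches, marked by dates that match biological replicates 1 to 3, without saying what was done on those dates. Each batch holds 1 library of each genotype on each day, for 8 groups of 3 libraries. Strain, age, and the number of mice behind each batch were not given in the sources used here.

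Libraries held between 10184439 and 19483386 counts. Levels are CPM (a gene's counts scaled to a common library size) with factors from the trimmed mean of M values (TMM), given as mean ± SD (n = 3), and a difference was called when the Benjamini-Hochberg adjusted p of edgeR's quasi-likelihood test was under 0.05. The targeted gene, Krt8, was at 523 ± 34.6 to 4030 ± 1070 CPM in the Krt8+/+ groups and 29.6 ± 7.74 to 38.2 ± 9.47 CPM in the Krt8-/- groups. The AEC2 label was checked with 10 markers. Sftpc (surfactant protein C) was at 187000 ± 34600 CPM in Krt8+/+ cells on day 0, and all 10 markers were lower on days 1, 3, and 7 than on day 0 in both genotypes. Summed endothelial markers did not exceed 45.0 CPM in any library, and macrophage and leucocyte markers lay between 8.42 and 231 CPM. Club cell and fibroblast markers were higher in fresh cells and are given below with Cyp4b1, Cyp1b1, and Fmo2. The 7 ciliated cell markers fell with the 5 falling genes, from 336 to 713 CPM in fresh Krt8+/+ cells to 15.4 to 28.0 CPM on day 7, and from 501 to 786 to 12.8 to 24.3 CPM in Krt8-/- cells. All 7 were called lower on day 7 in both genotypes, and their part in the results was not tested. In batch 1 the Krt8+/+ libraries held the female transcript Xist (62.4 to 79.5 CPM) and at most 0.441 CPM of 4 Y-linked genes, whereas the Krt8-/- libraries held both, with 173 to 191 CPM of the Y-linked genes and at least 5.92 CPM of Xist, so that sex and genotype cannot be told apart within that batch. Batch 2 held Xist and batch 3 Y-linked transcripts in both genotypes. These are bulk libraries, in which fewer cells of a type and less RNA per cell cannot be told apart.

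P450s are haem enzymes of the endoplasmic reticulum that take electrons from NADPH through the reductase Por, while flavin-containing monooxygenases carry their own flavin and need no such partner. Cyp1a1 and Cyp1b1 oxidise polycyclic aromatic hydrocarbons and are classical targets of the aryl hydrocarbon receptor (AhR, gene Ahr), which with its partner Arnt binds DNA at xenobiotic response elements. Cyp2b10 is the classical target of the constitutive androstane receptor (CAR, gene Nr1i3). Cyp4b1 and Fmo2 are known as lung forms of their families.

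The 250 bases before the RefSeq transcript start are shown for the 4 P450 genes, whose courses in culture ran in opposite directions. Elements further from the start were not searched. Some RefSeq starts differ from the GENCODE gene spans given below. The Cyp1a1 window lies within its gene's GENCODE span (57687928-57703824). Those of Cyp2b10 and Cyp4b1 overlap the edges of their spans (25897620 and 115647723). The windows, in GRCm38.p6, were chr9:57697363-57697612 (plus strand) for Cyp1a1, chr17:79715062-79715311 (minus strand) for Cyp1b1, chr7:25897408-25897657 (plus strand) for Cyp2b10, and chr4:115647722-115647971 (minus strand) for Cyp4b1. Each is written 5′ to 3′ on the strand of the gene. Capitals mark GCGTG, the core of the xenobiotic response element, searched on both strands, so that a match on the opposite strand reads CACGC.
Cyp1a1: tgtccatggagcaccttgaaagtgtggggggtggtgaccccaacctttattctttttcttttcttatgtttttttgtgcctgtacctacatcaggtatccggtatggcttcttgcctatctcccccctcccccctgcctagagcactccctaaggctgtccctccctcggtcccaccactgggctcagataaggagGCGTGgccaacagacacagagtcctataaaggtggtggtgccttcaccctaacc
Cyp1b1: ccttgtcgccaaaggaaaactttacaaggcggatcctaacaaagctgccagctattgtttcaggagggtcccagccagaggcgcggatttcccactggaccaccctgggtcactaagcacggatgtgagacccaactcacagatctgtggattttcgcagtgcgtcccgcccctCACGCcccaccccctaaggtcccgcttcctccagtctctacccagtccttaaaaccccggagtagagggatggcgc
Cyp2b10: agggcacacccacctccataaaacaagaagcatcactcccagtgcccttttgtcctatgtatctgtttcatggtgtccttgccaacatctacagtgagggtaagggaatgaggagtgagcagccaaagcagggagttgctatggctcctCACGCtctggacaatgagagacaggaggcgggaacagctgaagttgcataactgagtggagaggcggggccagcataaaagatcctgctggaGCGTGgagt
Cyp4b1: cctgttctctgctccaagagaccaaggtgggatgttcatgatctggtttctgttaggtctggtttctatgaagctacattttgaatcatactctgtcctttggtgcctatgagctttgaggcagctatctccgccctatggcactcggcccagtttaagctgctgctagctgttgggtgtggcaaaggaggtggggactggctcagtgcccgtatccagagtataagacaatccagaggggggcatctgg
Cyp1a1 held 1 match, 54 bases before the start, and Cyp1b1 held 1 on the opposite strand, 76 bases before it. Cyp2b10 held 2, at 101 bases on the opposite strand and 9 bases on the gene's strand, and Cyp4b1 held none. Of 32851 RefSeq windows of the same length, 28.2% held at least 1 such core, so that these letters alone were not particular to the genes. A longer form of the element, TNGCGTG, searched on both strands and found in 4.1% of windows, was in none of these 4 windows. The letters TATAAA, found in 12.4% of windows, lay 30 bases before the start of Cyp1a1 and overlapped no core. Fmo2 had 2 start windows with no core of either form. A match is a description of the letters and not evidence of binding.

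All 7 genes changed during culture of Krt8+/+ AECs. On day 1, 2 of 7 were higher than on day 0 and 4 lower, beside 26.2% of all tested genes higher and 28.5% lower. On day 3 the same comparison gave 2 higher and 5 lower (26.1% and 27.8% of all genes), and on day 7 it gave 1 higher and 5 lower (28.6% and 30.2%). The median log2 difference of the 7 genes from day 0 was -1.31, -3.38, and -4.34 on days 1, 3, and 7. The median of all tested genes rounded to 0.00 in each of these comparisons. Krt8-/- AECs gave 2 higher and 4 lower on day 1 (23.7% and 26.9% of all genes), 2 and 5 on day 3 (25.4% and 26.6%), and 1 and 5 on day 7 (28.6% and 29.9%). The higher genes were Cyp1a1 and Cyp1b1, and the other 5 were the lower ones. Since the 7 were chosen with earlier results known, these counts and medians describe these genes only. From day 1 to day 3, 1 gene was higher and 4 lower in Krt8+/+ AECs (14.4% and 11.9% of all genes) and 2 and 4 in Krt8-/- AECs (13.4% and 10.2%), and from day 3 to day 7, 0 were higher in either genotype (3.11% and 4.40% of all genes) and 4 and 5 were lower (3.47% and 6.15%). These step counts rest on all 3 batches, since without single batches the first pair went from 5 and 6 called to 2 to 3 and 2 to 4. The plot of each library shows these courses.

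**Figure D1:**
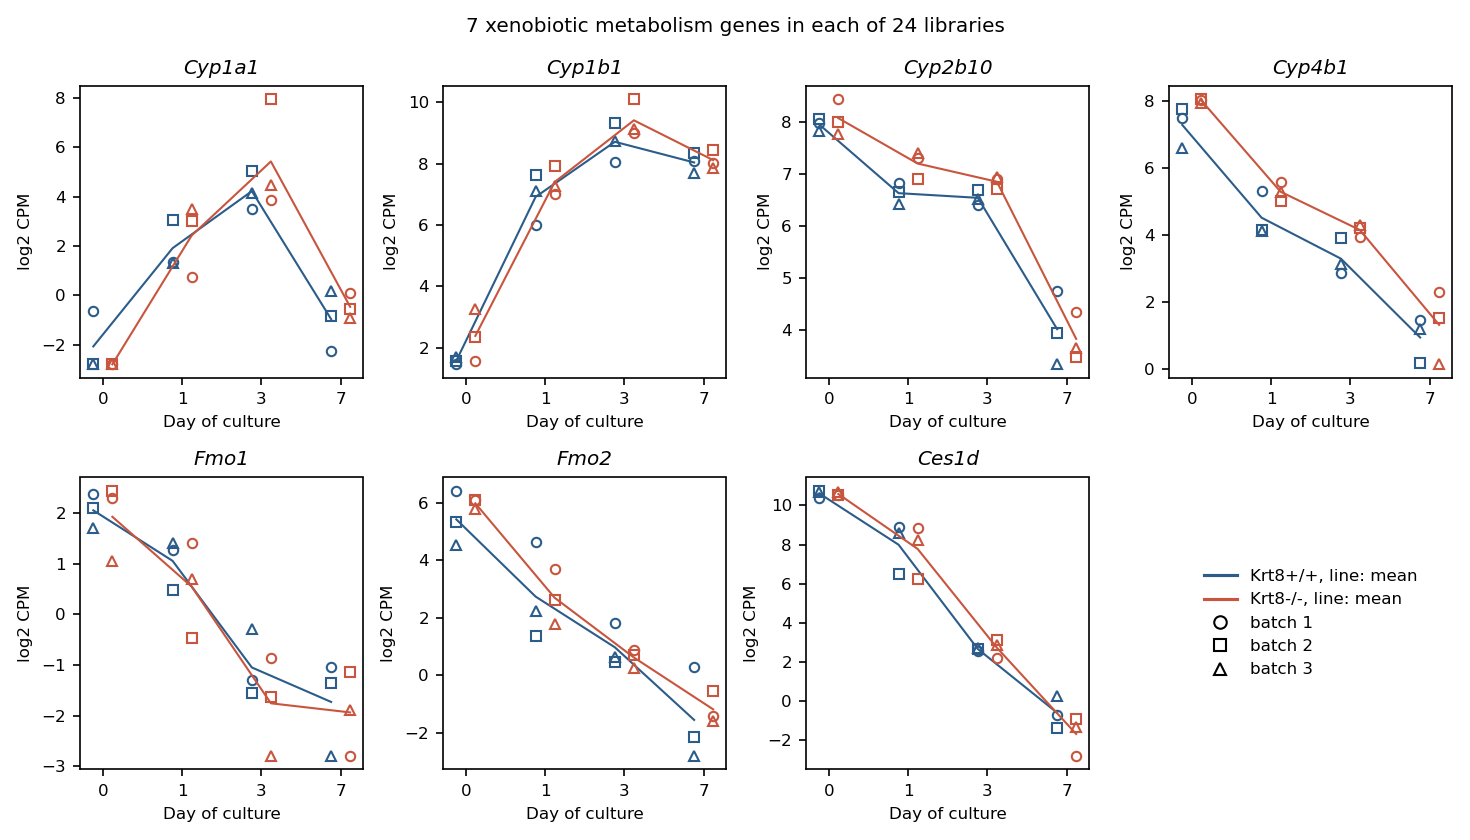
Level of the 7 genes in each library (y axis, log2 CPM with a prior count of 2) against day of culture (x axis, days evenly spaced). Symbols stand for batches 1 to 3, colours for genotype, and lines join group means of the plotted values. Cyp1a1 and Cyp1b1 rose to a peak on day 3, the other 5 genes fell, and the Krt8-/- library of batch 2 on day 3 stood above all other libraries for Cyp1a1.

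Cyp1b1 (ENSMUSG00000024087, chr17:79701537-79715061, minus strand, GRCm38) showed the firmest rise. In batches 1, 2, and 3, Krt8+/+ libraries held 2.61, 2.82, and 3.10 CPM on day 0, 64.0, 199, and 138 CPM on day 1, 268, 644, and 427 CPM on day 3, and 272, 324, and 206 CPM on day 7. The matching Krt8-/- libraries held 2.81, 4.96, and 9.35 CPM on day 0, 128, 243, and 156 CPM on day 1, 511, 1100, and 566 CPM on day 3, and 260, 352, and 233 CPM on day 7. No library of a later day overlapped any library of day 0, and batch 2 was the highest of the 3 on each day of culture in both genotypes. Group means in Krt8+/+ AECs were 2.84 ± 0.247, 134 ± 67.8, 446 ± 189, and 267 ± 59.1 CPM, which is 47.1-, 157-, and 94.1-fold the day 0 mean. The log2 difference from day 0 was 5.56 (SE 0.52, edgeR adjusted p = 3.5e-08) on day 1, 7.30 (SE 0.55, adjusted p = 1.9e-09) on day 3, and 6.56 (SE 0.54, adjusted p = 3.1e-09) on day 7. From day 1 to day 3 the level rose again by 1.74 (SE 0.41, edgeR adjusted p = 0.00404), and the difference of -0.74 between days 7 and 3 was not called (SE 0.40, adjusted p = 0.340).

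The course of Cyp1b1 in Krt8-/- AECs had the same order. The means were 5.71 ± 3.33, 175 ± 60.1, 725 ± 324, and 282 ± 62.3 CPM, 30.7-, 127-, and 49.4-fold the day 0 mean on days 1, 3, and 7. In edgeR the log2 differences from day 0 were 4.94 (SE 0.49, adjusted p = 8.0e-08), 6.99 (SE 0.53, adjusted p = 2.3e-09), and 5.62 (SE 0.51, adjusted p = 9.8e-09). The fall of 1.36 on the log2 scale from day 3 to day 7 was called (SE 0.41, edgeR adjusted p = 0.0356), but not when the day 3 library of batch 2 was left out (-0.93, adjusted p = 0.213), nor without batch 2 on all days (adjusted p = 0.171) or batch 3 (adjusted p = 0.200).

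Cyp1b1 is also expressed by fibroblasts and pericytes, and their markers were therefore set beside it. Summed over 10 genes, these markers lay at 482 to 1450 CPM in fresh Krt8+/+ cells, and in the 3 later groups at 204 to 454, 1130 to 1980, and 1050 to 2040 CPM. On day 1, 0 of the 10 markers were higher and 5 were lower than on day 0. On day 3, 3 of 10 were higher and 2 lower. On day 7, 3 were higher and 5 lower (median log2 difference -0.70). In Krt8-/- AECs 3 were higher and 4 lower on day 7 (median -0.90). Krt8-/- libraries held 510 to 1050, 153 to 293, 784 to 1500, and 946 to 3320 CPM on the 4 days. Col1a1, the collagen gene that heads the list, averaged 53.9 ± 41.1, 19.4 ± 10.3, 525 ± 164, and 522 ± 208 CPM in Krt8+/+ AECs. All 10 markers had counts in every library of days 0, 1, and 3. The part of fibroblasts in the Cyp1b1 levels was not tested on any day.

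Cyp1a1 (ENSMUSG00000032315, chr9:57687928-57703824, plus strand) was close to absent in fresh cells, rose on days 1 and 3, and was low again on day 7. On day 0 its 8 counts in Krt8+/+ cells all came from batch 1 (0.509, 0, and 0 CPM in batches 1, 2, and 3), and Krt8-/- cells had 0 counts in all 3 libraries. Krt8+/+ libraries held 2.42, 8.19, and 2.38 CPM on day 1, 11.1, 33.1, and 17.5 CPM on day 3, and 0.0681, 0.415, and 0.994 CPM on day 7. All libraries of days 1 and 3 lay above those of day 0, whereas days 7 and 0 overlapped. The means were 0.170 ± 0.294, 4.33 ± 3.34, 20.5 ± 11.3, and 0.492 ± 0.468 CPM. The log2 difference from day 0 was 4.20 (SE 1.37, edgeR adjusted p = 0.0149) on day 1 and 6.46 (SE 1.32, adjusted p = 4.1e-04) on day 3, and 1.12 (SE 1.74, adjusted p = 0.596) on day 7, which was not called. Without batch 1, fresh Krt8+/+ cells held no count, and these differences then depend on the prior count. The call on day 1 was lost without batch 2 (adjusted p = 0.0628) or batch 3 (adjusted p = 0.0650). From day 3 to day 7 the level fell by 5.34 on the log2 scale (SE 1.15, edgeR adjusted p = 0.00740). This call was lost without batch 2 (adjusted p = 0.0656) or batch 3 (adjusted p = 0.0565). The difference between days 3 and 1 was called only with batch as a replicate block (2.34, edgeR adjusted p = 0.0261), with no filter, and with only the groups compared, and not in the unblocked test (2.26, adjusted p = 0.0781).

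In the Krt8-/- libraries of batches 1, 2, and 3, Cyp1a1 was at 1.52, 8.04, and 11.2 CPM on day 1, 14.6, 246, and 21.9 CPM on day 3, and 0.915, 0.545, and 0.383 CPM on day 7. The day 3 library of batch 2 held 4087 of the 4611 counts of its group, so that the mean of 94.3 ± 132 CPM rests on it. Against a floor of 3 counts over the 3 libraries of day 0, the level was at least 88.5-fold higher on day 1 (285 counts) and at least 1240-fold higher on day 3, or at least 223-fold higher on day 3 without that library (524 counts). Both were called by edgeR (adjusted p = 0.00134 and 1.2e-05), while day 7, at least 7.71-fold higher on 29 counts, was not (adjusted p = 0.104) but was called without batch 2 (adjusted p = 0.0444), with no filter on low counts (adjusted p = 0.0451), and by DESeq2 (adjusted p = 0.00290). The rise from day 1 to day 3 of 3.76 on the log2 scale (SE 0.95, edgeR adjusted p = 0.00779) was lost without the library of batch 2 on day 3 (1.34, adjusted p = 0.268) or that batch as a whole (1.48, adjusted p = 0.337). The fall from day 3 to day 7 was called (log2 difference -7.22, SE 1.18, edgeR adjusted p = 4.7e-04), and without the high library it was called at -4.85 (adjusted p = 0.00215).

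**Figure D2:**
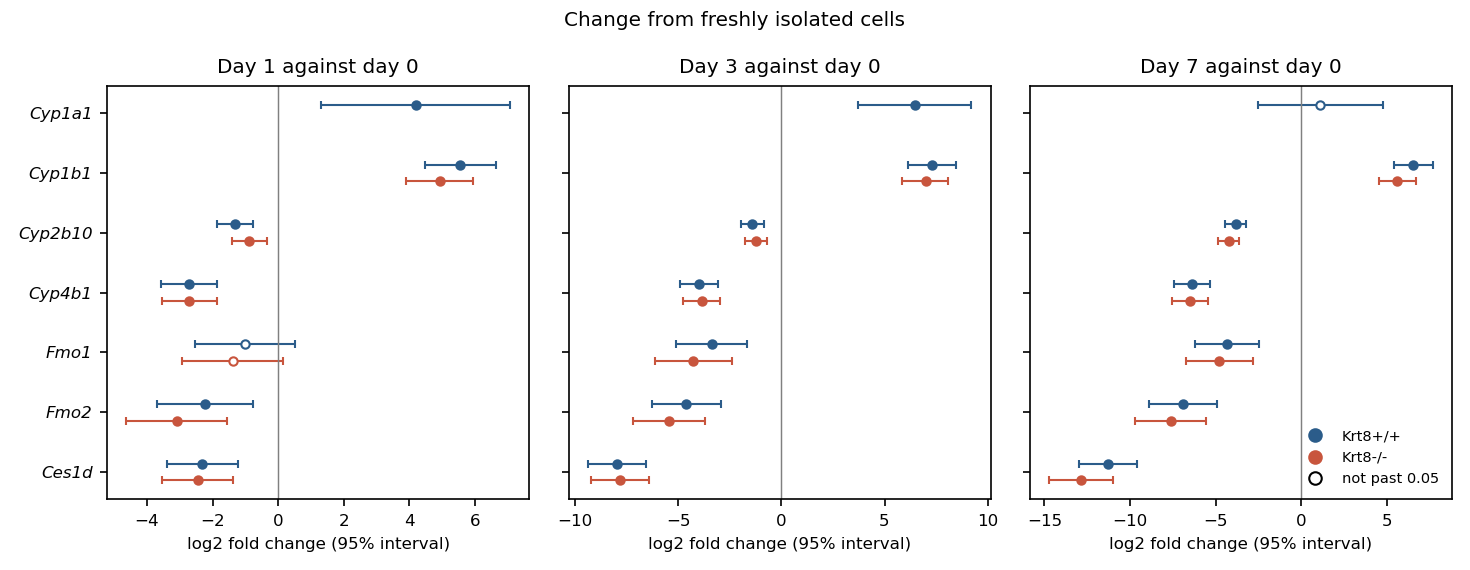
Log2 difference of days 1, 3, and 7 from day 0 (x axis, edgeR estimate with its 95% interval) for each gene (y axis) in Krt8+/+ and Krt8-/- AECs. Filled symbols were called at an adjusted p under 0.05. Cyp1a1 in Krt8-/- AECs is left out because no count was found on day 0. Intervals of the 2 genotypes overlapped for each plotted gene.

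The AhR pathway was followed in 11 other genes, of which 10 were tested. Of these, 5 were higher and 3 lower on day 1 in Krt8+/+ AECs (median log2 difference 0.77), 4 and 4 on day 3 (median -0.05), and 3 and 7 on day 7 (median -0.53). Over all tested genes the shares were 26.2% and 28.5%, 26.1% and 27.8%, and 28.6% and 30.2%. The receptor gene Ahr was at 33.7 ± 1.78, 53.8 ± 8.39, 49.9 ± 11.4, and 24.6 ± 6.27 CPM on days 0, 1, 3, and 7. It rose on day 1 (log2 difference 0.67, edgeR adjusted p = 0.00471) and was slightly lower than on day 0 on day 7 (-0.45, adjusted p = 0.0434). Arnt was at 72.7 ± 5.71, 38.1 ± 8.47, 53.3 ± 5.42, and 43.8 ± 6.42 CPM and was lower on day 7 (-0.73, edgeR adjusted p = 4.9e-04). Ahrr, which encodes the repressor of the receptor and is itself a target, had 0 counts on day 0 and 0.513 ± 0.145, 4.23 ± 0.129, and 1.38 ± 1.18 CPM later (edgeR adjusted p = 0.00360, 1.6e-05, and 2.0e-04).

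Other tested genes of this list were either higher or lower on day 7 than on day 0. Nqo1, a quinone reductase, rose from 4.47 ± 1.21 CPM to 135 ± 35.2 on day 1 and was at 105 ± 45.6 CPM on day 7 (log2 difference 4.56, edgeR adjusted p = 7.8e-08). Aldh3a1, an aldehyde dehydrogenase, rose from 69.7 ± 4.16 to 193 ± 97.2 CPM on day 1 (1.47, edgeR adjusted p = 0.00256) and was at 2.34 ± 0.655 CPM on day 7 (-4.89, adjusted p = 2.1e-08). The glucuronosyltransferase genes Ugt1a6a and Ugt1a6b fell from 68.0 ± 2.77 to 4.22 ± 0.797 CPM and from 44.1 ± 5.10 to 2.63 ± 1.02 CPM by day 7 (edgeR adjusted p = 2.4e-07 and 2.0e-07). These 2 genes share exons, and their reads cannot be fully told apart. Arnt2, a relative of Arnt, rose from 0.568 ± 0.380 to 4.02 ± 1.28 CPM (2.81, edgeR adjusted p = 0.0107). Cyp1a2, the neighbour and closest relative of Cyp1a1, had 19 counts in all 24 libraries and was not tested.

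The single high library for Cyp1a1 was also high for other targets of the receptor. On day 3, the Krt8-/- libraries of batches 1, 2, and 3 held 3.02, 11.0, and 2.54 CPM of Ahrr, 97.8, 170, and 105 CPM of Tiparp, 72.0, 181, and 93.2 CPM of Aldh3a1, and 129, 229, and 148 CPM of Nqo1. Batch 2 was the highest for each. In the Krt8+/+ libraries of day 3, batch 2 was also the highest for Tiparp (94.3 CPM) and Aldh3a1 (74.3 CPM), but not for Ahrr or Nqo1. The cause of the high values was not tested. Ahr itself was at 53.9, 50.4, and 55.5 CPM in the Krt8-/- libraries of day 3, lowest in batch 2. Tiparp, which modifies and restrains the receptor, was named after its values were seen.

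**Figure D3:**
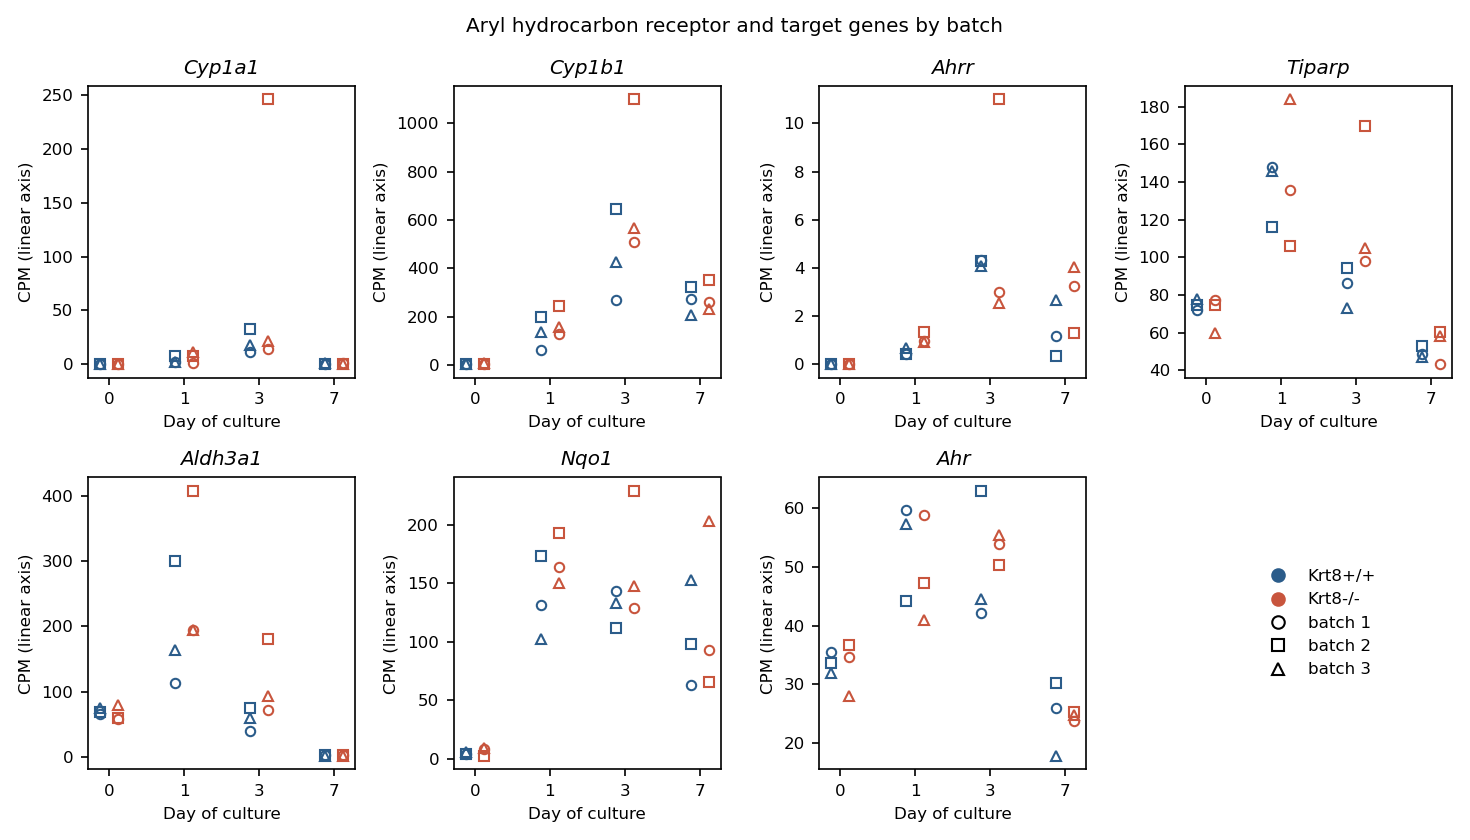
Level of Cyp1a1, Cyp1b1, 4 other targets of the aryl hydrocarbon receptor, and the receptor gene Ahr in each library (y axis, CPM, linear) against day of culture (x axis). Symbols stand for batches and colours for genotype. The Krt8-/- library of batch 2 on day 3 was the highest of all 24 for Cyp1a1 (246 CPM), Cyp1b1 (1100), Ahrr (11.0), and Nqo1 (229), but not for Tiparp, Aldh3a1, or Ahr.

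Cyp2b10 (ENSMUSG00000030483, chr7:25897620-25926624, plus strand) fell in 2 steps. Krt8+/+ libraries of batches 1, 2, and 3 held 252, 266, and 225 CPM on day 0, 113, 101, and 86.0 CPM on day 1, 84.6, 103, and 92.2 CPM on day 3, and 26.9, 15.3, and 10.0 CPM on day 7. Days 1 and 3 overlapped, and both lay below day 0 and above day 7 in every library. As a share of day 0, the means of the 3 later days were 40.3%, 37.7%, and 7.03%. The log2 difference from day 0 was -1.31 on day 1 (SE 0.26, edgeR adjusted p = 2.7e-04) and -3.83 on day 7 (SE 0.29, adjusted p = 9.9e-10). Between days 1 and 3 the difference was -0.10 (edgeR adjusted p = 0.815) and between days 3 and 7 it was -2.42 (SE 0.27, adjusted p = 3.1e-05).

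Krt8-/- libraries held 346, 258, and 220 CPM of Cyp2b10 on day 0, 158, 120, and 168 on day 1, 120, 105, and 123 on day 3, and 20.1, 11.1, and 12.5 on day 7. Days 1 and 3 again overlapped, and the means were 54.2%, 42.2%, and 5.30% of day 0. The edgeR log2 difference from day 0 was -0.88 on day 1 (SE 0.26, adjusted p = 0.00728), which was not called without batch 2 (-0.70, adjusted p = 0.145), and -4.23 on day 7 (SE 0.30, adjusted p = 3.3e-10). The nuclear receptors known to control this gene were barely detected. Nr1i3 (CAR) reached a group mean of at most 0.624 CPM and Nr1i2 (the pregnane X receptor, PXR) at most 0.265 CPM, and neither was tested. Of the 10 genes listed for CAR and PXR, these receptors included, 3 were tested. On day 7 in Krt8+/+ AECs, 2 were lower (30.2% of all tested genes were). They were Rxrb, a shared partner of nuclear receptors (67.0 ± 4.08 to 34.8 ± 1.65 CPM, edgeR adjusted p = 5.7e-06), and Cyp3a13 (3.12 ± 2.40 to 0.722 ± 0.341 CPM, adjusted p = 0.0119).

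Cyp4b1 (ENSMUSG00000028713, chr4:115624725-115647723, minus strand), whose product oxidises fatty acids and activates some lung toxicants, was lower on each later day than on day 0. In batches 1, 2, and 3 Krt8+/+ libraries held 177, 216, and 96.1 CPM on day 0, 39.3, 17.4, and 17.0 CPM on day 1, 7.08, 14.8, and 8.57 CPM on day 3, and 2.59, 0.995, and 2.12 CPM on day 7. Successive days did not overlap. The mean was at 15.1%, 6.22%, and 1.17% of day 0 on days 1, 3, and 7, with log2 differences of -2.73 (SE 0.41, edgeR adjusted p = 1.3e-05), -4.01 (SE 0.43, adjusted p = 1.8e-07), and -6.39 (SE 0.51, adjusted p = 1.8e-09). The step from day 1 to day 3 was -1.28 (edgeR adjusted p = 0.0238) and was not called without batch 1 (-0.56, adjusted p = 0.370) or batch 3 (-1.38, adjusted p = 0.0536), nor with only the groups compared (-1.26, adjusted p = 0.0535), and the step from day 3 to day 7 was -2.39 (adjusted p = 0.00304) and was not called without batch 2 (adjusted p = 0.177).

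Cyp4b1 in Krt8-/- libraries was at 262, 263, and 245 CPM on day 0, 47.2, 31.8, and 38.8 CPM on day 1, 15.2, 18.3, and 19.3 CPM on day 3, and 4.75, 2.73, and 0.957 CPM on day 7. These were 15.3%, 6.86%, and 1.09% of the day 0 mean on days 1, 3, and 7, close to the shares in Krt8+/+ AECs. The log2 difference on day 7 was -6.49 (edgeR adjusted p = 1.2e-09). The step from day 1 to day 3 was -1.16 (edgeR adjusted p = 0.0385), and it was not called without any 1 of the 3 batches (-0.91 to -1.34, adjusted p = 0.0854 to 0.169). Cyp4b1 is also known from club cells of the airway. The 6 club markers summed to 5510, 11600, and 6120 CPM in fresh Krt8+/+ cells, and to 4850 to 15700, 381 to 1230, and 10.1 to 14.9 CPM after 1, 3, and 7 days. On day 1, 3 of the 6 markers were called lower and 0 higher, and on days 3 and 7 all 6 were lower. The defining marker Scgb1a1, which made up most of these sums, averaged 5980 ± 2820, 9230 ± 5710, 855 ± 435, and 12.2 ± 2.65 CPM. The median log2 difference of the 6 markers from day 0 was -2.66, -5.70, and -10.54 on days 1, 3, and 7. For Cyp4b1 it was -2.73, -4.01, and -6.39. In Krt8-/- AECs the marker medians were -2.79, -6.47, and -11.85, the last with a floor of 3 counts for groups without counts. For Cyp4b1 they were -2.71, -3.87, and -6.49. The values were thus close on day 1 only. On day 7 Scgb1a1 was still counted in each Krt8+/+ library, while 2 to 4 of the 6 markers had no count. In Krt8-/- libraries the sums were 14700 to 20400, 7790 to 11800, 876 to 1160, and 6.70 to 17.6 CPM on the 4 days. The part of club cells in the level of Cyp4b1 was not tested.

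Fmo2 (ENSMUSG00000040170, chr1:162874317-162898726, minus strand) and its neighbour Fmo1 (ENSMUSG00000040181, chr1:162829561-162866610, minus strand) add oxygen to nitrogen and sulphur atoms of drugs and other foreign compounds. Fmo2 was at 84.9, 39.8, and 22.8 CPM in the Krt8+/+ libraries of day 0, 24.4, 2.42, and 4.55 CPM on day 1, 3.41, 1.23, and 1.42 CPM on day 3, and 1.09, 0.0829, and 0 CPM on day 7. Batch 1 was the highest on each day. Its level on day 1 overlapped batch 3 of day 0, yet each batch was lower on day 1 than on day 0. The log2 difference from day 0 was -2.23 on day 1 (SE 0.71, edgeR adjusted p = 0.0113), and this call was lost without batch 2 (-1.83, adjusted p = 0.128). On day 3 it was -4.61 (SE 0.81, edgeR adjusted p = 6.4e-05) and on day 7 -6.91 (SE 0.97, adjusted p = 3.6e-06). The step from day 3 to day 7 was called with batch as a replicate block (-2.45, edgeR adjusted p = 0.0391) and without batch 1 (-4.85, adjusted p = 0.0143), but not in the unblocked test of all libraries (-2.29, adjusted p = 0.202).

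The Krt8-/- libraries held 67.3, 67.4, and 54.2 CPM of Fmo2 on day 0, 12.9, 5.97, and 3.27 CPM on day 1, 1.71, 1.51, and 1.06 CPM on day 3, and 0.229, 0.545, and 0.191 CPM on day 7. Here successive days did not overlap. The log2 differences from day 0 were -3.10 (edgeR adjusted p = 0.00152), -5.45 (adjusted p = 1.8e-05), and -7.63 (adjusted p = 1.5e-06). The sums of the 10 fibroblast markers in the Krt8+/+ libraries of day 0 were 1450, 747, and 482 CPM in batches 1, 2, and 3. On day 3 these sums were at 1980, 1510, and 1130 CPM. Of the 10 markers, 3 were then called higher and 2 lower than on day 0 (median log2 difference -0.10). The part of fibroblasts in the level of Fmo2 was not tested.

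Fmo1 had at most 79 counts in any library. It was at 5.02, 4.12, and 3.10 CPM in the Krt8+/+ libraries of day 0, 2.28, 1.25, and 2.51 CPM on day 1, 0.262, 0.194, and 0.681 CPM on day 3, and 0.340, 0.249, and 0 CPM on day 7. The change on day 1 was not called (-1.02, SE 0.73, edgeR adjusted p = 0.247), although the groups did not overlap. Days 3 and 7 were lower than day 0, by -3.38 (SE 0.82, edgeR adjusted p = 0.00162) and -4.34 (SE 0.90, adjusted p = 3.3e-04). The Krt8-/- libraries held 4.75, 5.26, and 1.93 CPM on day 0, 2.51, 0.584, and 1.48 on day 1, 0.411, 0.181, and 0 on day 3, and 0, 0.311, and 0.128 on day 7. Fmo1 was again called on day 3 (-4.27, edgeR adjusted p = 4.3e-04) and day 7 (-4.78, adjusted p = 1.8e-04) but not on day 1 (-1.39, adjusted p = 0.125). From day 3 on no library held more than 12 counts of Fmo1, and a difference between days 3 and 7 was not detectable at this depth.

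Ces1d (ENSMUSG00000056973, chr8:93166068-93197838, minus strand), a hydrolase of esters and of stored triacylglycerol, was the most abundant of the 7 genes in fresh cells and lost the most. Krt8+/+ libraries of batches 1, 2, and 3 held 1350, 1720, and 1660 CPM on day 0, 480, 89.6, and 383 CPM on day 1, 5.84, 6.22, and 6.52 CPM on day 3, and 0.476, 0.249, and 1.06 CPM on day 7. Krt8-/- libraries held 1480, 1490, and 1630 CPM on day 0, 455, 76.6, and 305 CPM on day 1, 4.46, 8.68, and 7.11 CPM on day 3, and 0, 0.389, and 0.255 CPM on day 7. The days did not overlap in either genotype. The mean was 20.1%, 0.393%, and 0.0377% of day 0 in Krt8+/+ AECs and 18.2%, 0.440%, and 0.0140% in Krt8-/- AECs. Log2 differences from day 0 in Krt8+/+ AECs were -2.31 (SE 0.52, edgeR adjusted p = 8.5e-04), -7.99 (SE 0.68, adjusted p = 7.9e-09), and -11.30 (SE 0.82, adjusted p = 5.2e-10). In Krt8-/- AECs they were -2.46 (edgeR adjusted p = 5.6e-04), -7.82 (adjusted p = 1.1e-08), and -12.86 (adjusted p = 3.3e-10). The last step, from day 3 to day 7, was called in both genotypes (-3.31, edgeR adjusted p = 0.00775, and -5.03, adjusted p = 6.1e-04), in Krt8+/+ AECs not without batch 1 (adjusted p = 0.0843) or batch 3 (adjusted p = 0.0998).

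On day 1 the loss of Ces1d was unequal between batches, and in both genotypes batch 2 was the lowest. The 10 AEC2 markers showed the same order on that day, with sums of 90000, 15400, and 70000 CPM in Krt8+/+ libraries and 85300, 14500, and 64400 CPM in Krt8-/- libraries. In fresh cells these sums lay at 235000 to 309000 CPM (Krt8+/+) and 260000 to 312000 CPM (Krt8-/-), and by day 7 they had come to 319 to 417 and 276 to 318 CPM. Batch 2 was thus lowest for Ces1d and AEC2 markers on day 1 and highest for Cyp1b1 on the same day.

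Between genes, levels were compared per kilobase of exon. In fresh Krt8+/+ cells the order was Ces1d (666 CPM per kb), Cyp2b10 (117), Cyp4b1 (72.3, range 42.6 to 95.9), Fmo2 (8.76, range 4.07 to 15.1), Fmo1 (0.647, range 0.492 to 0.797), Cyp1b1 (0.486, range 0.446 to 0.531), and Cyp1a1 (0.0608). Only Fmo1 and Cyp1b1 overlapped among these neighbours. By day 7 the level per kilobase of Cyp1b1 came first (45.8, range 35.3 to 55.5), followed by Cyp2b10 (8.24, range 4.74 to 12.7) and Cyp4b1 (0.843, range 0.441 to 1.15). Ces1d (0.251, range 0.105 to 0.448), Cyp1a1 (0.177, range 0.0244 to 0.357), Fmo2 (0.0696, range 0 to 0.194), and Fmo1 (0.0312, range 0 to 0.0540) came last. From Cyp4b1 to Fmo1 each gene overlapped the next in this order.

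Related genes could have shared reads with the 7. The closest relative of Cyp2b10, Cyp2b9, was 86.3% identical over 1881 bases and had 29 counts in all libraries against 39590 for Cyp2b10. Cyp1a2 was 77.9% identical to Cyp1a1 over 1514 bases, and the pseudogene Cyp4b1-ps2 was 96.4% identical to Cyp4b1 over 333 bases with 36 counts against 19071. For Ces1d the closest was Ces1g (81.2% over 1777 bases, 3328 counts against 132559). No other gene overlapped their exons.

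Over the 24 libraries, the genes most like each of the 7 were found by Pearson's r of log2 CPM among 15292 named genes. The libraries fall into 8 groups that share batches, so that r mostly describes the course over days. Nearest to Cyp1b1 were Cyp4f39 (r = 0.979), S100a14 (0.976), and Nrk (0.975), and nearest to Cyp1a1 were Anxa10 (0.922), Slc6a14 (0.915), and Krtap1-5 (0.894). Ces1d ran closest to Cxcl15 (0.996), the surfactant protein gene Sftpb (0.995), and Cbr2 (0.990). Cyp2b10 was closest to Cxcl17 (0.984), Ehf (0.979), and Cyp2s1 (0.977), and Cyp4b1 to Cd82 (0.986), Mmp15 (0.981), and Map3k5 (0.976). Fmo2 was closest to Map3k5 (0.971), Togaram2 (0.967), and Hdc (0.966), and Fmo1 to Ly6c2 (0.940), Hc (0.940), and Lamp3 (0.939).

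Beyond the 7 genes, 162 others of xenobiotic metabolism were listed by role, and 114 were tested. On day 1, 34 were higher and 53 lower than on day 0 in Krt8+/+ AECs (median log2 difference -0.47). Over all genes these shares were 26.2% and 28.5% (54.7% in either direction). On day 7, 27 were higher and 59 lower (median -0.77), beside 28.6% and 30.2% of all genes (58.8% in either direction). Krt8-/- AECs gave 32 higher and 51 lower on day 1 (23.7% and 26.9% of all genes). On day 7 they gave 25 higher and 56 lower (28.6% and 29.9%). The counts by role below are for Krt8+/+ AECs and stand beside the same shares of all genes. The bars by role show that the transporters were the list with more genes higher than lower on both days.

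Of the 17 other P450s tested (35 in the table), 3 were higher and 10 lower after 1 day, and after 7 days 4 were higher and 9 lower (median -2.11). Cyp2f2, a club cell P450, fell from 1400 ± 383 to 0.431 ± 0.174 CPM by day 7 (log2 difference -11.64, edgeR adjusted p = 5.7e-10). Cyp2a5 was at 31.7 ± 25.2 CPM and Cyp4f15 at 2.54 ± 0.763 CPM on day 0, and both had 0 counts on day 7. Of the 4 that were higher, those with the largest changes were Cyp4f39, which hydroxylates very long fatty acids of the skin barrier and went from 1.02 ± 0.407 to 58.3 ± 9.91 CPM (5.79, edgeR adjusted p = 3.8e-11), Cyp2u1 (0.495 ± 0.288 to 3.02 ± 0.880 CPM), and Cyp4f13 (4.31 ± 1.19 to 12.1 ± 2.49 CPM).

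The proteins that serve P450s fell in part. Por, the electron donor, was at 601 ± 47.5, 404 ± 141, 225 ± 20.0, and 187 ± 0.695 CPM on days 0, 1, 3, and 7 (day 7 log2 difference -1.68, SE 0.19, edgeR adjusted p = 2.1e-07). Alas1, which starts haem synthesis, went from 451 ± 58.4 to 115 ± 11.3 CPM (-1.97, edgeR adjusted p = 2.3e-09), and Cyb5b, an outer mitochondrial cytochrome b5, from 825 ± 59.7 to 196 ± 21.5 CPM (-2.07, adjusted p = 2.0e-07). Of the 7 partners tested only Pgrmc1, a haem-binding membrane protein, was higher on day 7 (184 ± 39.1 to 486 ± 43.4 CPM, edgeR adjusted p = 5.2e-08), while 4 were lower.

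Of the flavin-containing monooxygenases outside the 7, Fmo4 was at 3.59 ± 1.59 CPM on day 0 and had 0 counts on day 7. Fmo5 went from 29.9 ± 5.92 to 5.93 ± 0.616 CPM (-2.33, edgeR adjusted p = 1.8e-06). Among 6 other carboxylesterases tested, 1 was higher and 3 lower, the latter including Ces1e (24.9 ± 5.39 to 0.271 ± 0.361 CPM, edgeR adjusted p = 4.0e-07) and Ces1f (3.87 ± 1.75 CPM to 0 counts). Both belong to the cluster of Ces1d.

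The remaining enzymes of the first phase went both ways, with 5 of 23 higher and 13 lower on day 7. Cbr2, a carbonyl reductase, fell from 8740 ± 1130 to 6.00 ± 3.31 CPM (-10.50, edgeR adjusted p = 1.2e-10), Aox3, an aldehyde oxidase, from 590 ± 32.6 to 0.545 ± 0.166 CPM (-10.05, adjusted p = 1.7e-07), and Aldh1a7 from 168 ± 25.5 to 2.39 ± 0.315 CPM (-6.13, adjusted p = 2.0e-10). Ephx2, the soluble epoxide hydrolase, rose from 0.221 ± 0.223 to 9.42 ± 2.71 CPM (5.19, edgeR adjusted p = 1.4e-06). Akr1b8 peaked at 292 ± 30.2 CPM on day 3 and was at 122 ± 40.3 CPM on day 7, against 31.2 ± 5.36 CPM in fresh cells, and Akr1c13 went from 3.27 ± 0.410 to 15.0 ± 2.80 CPM.

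Conjugating enzymes of the second phase gave 11 of 35 higher and 15 lower after 1 day, whereas after 7 days 6 were higher and 18 lower. Gsta1, a glutathione transferase, had the sharpest course, from 0.127 ± 0.220 CPM to 1090 ± 418 CPM on day 1 (12.55, edgeR adjusted p = 8.2e-12), then 89.2 ± 17.0 and 13.7 ± 4.74 CPM. Gsto1 (38.0 ± 7.51 to 454 ± 59.1 CPM) and Gstm5 (2.35 ± 0.975 to 20.4 ± 1.89 CPM) were higher on day 7. The sulphotransferases Sult1a1 (56.4 ± 5.66 to 0.360 ± 0.203 CPM) and Sult1d1 (12.1 ± 6.51 to 0.0774 ± 0.0835 CPM) fell, and Sult1c2 (3.01 ± 0.973 CPM on day 0) had 0 counts on day 7.

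Among 14 transporters tested, 7 were higher and 4 lower on day 7 (median 0.63). The efflux pumps Abcg2 (0.639 ± 0.825 to 25.6 ± 3.62 CPM, edgeR adjusted p = 1.7e-07), Abcb1b (1.51 ± 0.481 to 35.3 ± 5.96 CPM, adjusted p = 1.6e-10), and Abcc1 (12.7 ± 4.31 to 160 ± 37.2 CPM, adjusted p = 3.0e-08) rose. Slc15a2, a peptide transporter of AEC2s, fell from 115 ± 6.22 to 2.92 ± 0.773 CPM (edgeR adjusted p = 1.3e-09), Abcc3 from 125 ± 13.2 to 16.9 ± 2.47 CPM, and Slc22a5 from 27.6 ± 5.96 to 10.8 ± 2.16 CPM.

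**Figure D4:**
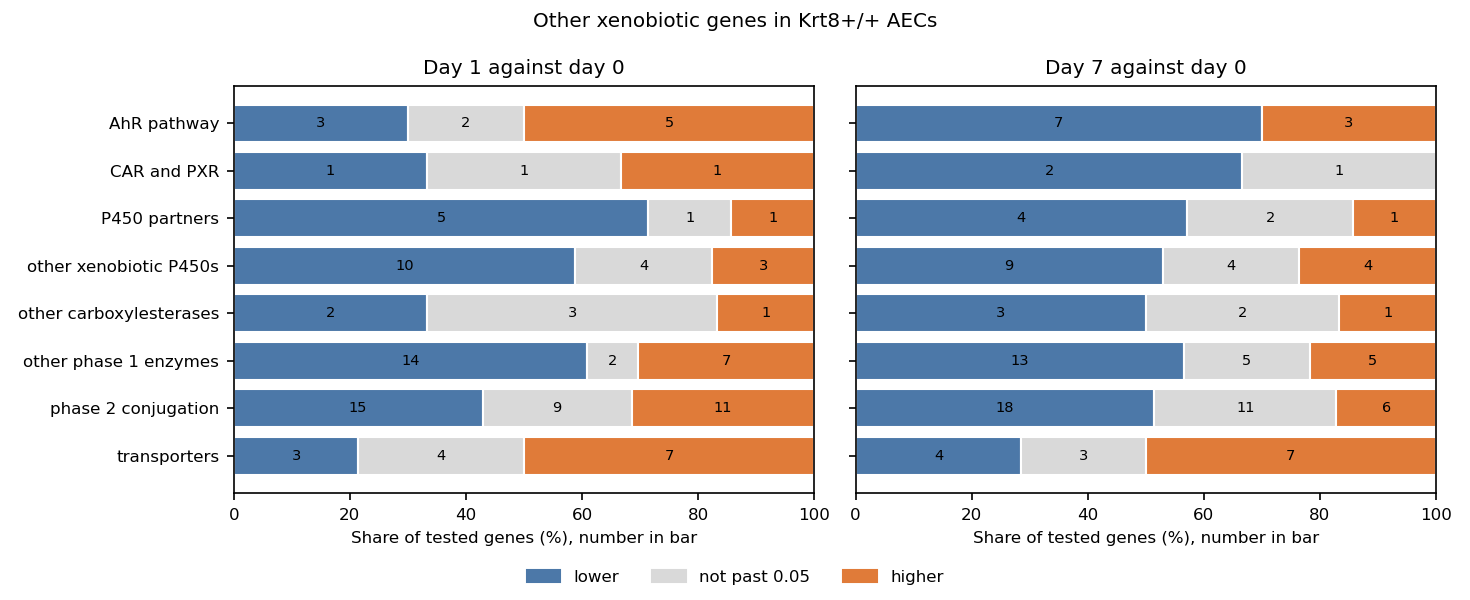
Share of tested genes (x axis, percent, with the number of genes in each bar) that were lower, not called, or higher in Krt8+/+ AECs on day 1 and day 7 against day 0, for 8 lists of other xenobiotic genes (y axis). Transporters had 7 genes higher on both days, and the AhR pathway went from 5 higher and 3 lower to 3 higher and 7 lower.

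The second question of the design was whether keratin 8 alters these levels. None of the 7 genes was called between Krt8-/- and Krt8+/+ AECs on any of the 4 days by edgeR, and none by DESeq2. At an unadjusted p under 0.05 edgeR gave 0, 1, 1, and 0 genes on days 0, 1, 3, and 7, and DESeq2 gave 2, 1, 0, and 0. With batch as a replicate block, the unadjusted edgeR p was 0.0187 for Cyp1b1 on day 0 and 0.0159 for Cyp2b10 on day 1. On day 3 it was 0.0339 for Cyp1a1, 0.0235 for Cyp1b1, and 0.0429 for Cyp4b1. The remaining unadjusted p of the block fit were above 0.05, and none of the 7 genes was called in it. Calls between genotypes were rare over all genes, at 0.0277% on day 0 and 0.0166% on each later day. No difference between genotypes in the change from day 0 was called for any of the 7 (genotype by day, edgeR adjusted p = 1.00 for each, beside 0.00554% of all genes called, with 0 of 7 also by DESeq2). At an unadjusted p under 0.05 this test gave 0 genes by edgeR and 1 by DESeq2. The errors of these estimates were wide, as for Ces1d on day 7 (-1.56, SE 1.31), so that equal changes were not shown. Of the 114 other xenobiotic genes tested, 0 were called on any day by either tool (unadjusted p under 0.05 for 6, 0, 8, and 4 by edgeR).

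Groups of 3 libraries did not overlap between genotypes for Cyp4b1 on day 0, for Cyp2b10 on day 1, and for both genes on day 3, and for none of the 7 on day 7. This was 1, 1, 2, and 0 of 7 genes, beside 6.88%, 5.79%, 11.0%, and 5.54% of all tested genes. Cyp4b1 differed (Krt8-/- minus Krt8+/+, log2 scale) by 0.65 (95% interval -0.14 to 1.45), 0.67 (-0.14 to 1.49), and 0.80 (-0.04 to 1.63) on days 0, 1, and 3 (edgeR adjusted p = 1.00 each). On day 7 its difference was 0.55 (-0.50 to 1.60). The 6 club markers in fresh cells summed to 14700 to 20400 CPM (Krt8-/-) against 5510 to 11600 CPM (Krt8+/+), and on day 3 to 876 to 1160 against 381 to 1230 CPM. None of the 6 was called between genotypes, and their part in the Cyp4b1 values was not tested. Without batch 1, in which Xist and Y-linked transcripts differed between the genotypes, the Cyp4b1 differences were 0.70, 1.04, 0.69, and 0.17 on days 0, 1, 3, and 7.

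For Cyp2b10 the log2 difference was 0.58 on day 1 (0.04 to 1.11, edgeR adjusted p = 1.00, unadjusted p = 0.0363), 0.31 on day 3 (-0.22 to 0.85), and -0.25 on day 7 (-0.82 to 0.31). The difference of 0.15 on day 0 turned to -0.04 without batch 1. Cyp1b1 differed by 1.01 (-0.06 to 2.08), 0.39 (-0.45 to 1.23), 0.70 (-0.14 to 1.54), and 0.08 (-0.76 to 0.91) on days 0, 1, 3, and 7. For Cyp1a1 the difference on day 3 was 2.20 (0.36 to 4.04, edgeR adjusted p = 1.00, unadjusted p = 0.0219), and it was -0.20 without the one high Krt8-/- library. On day 1 it was 0.70 (-1.22 to 2.63).

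Ces1d and both monooxygenases had intervals that included 0 on every day. Ces1d differed by -0.04 in fresh cells (-1.07 to 0.99), by -0.19 on day 1 (-1.22 to 0.84), and by 0.13 on day 3 (-1.03 to 1.28). On day 7, with few counts, the difference was -1.60 (-4.11 to 0.92). Fmo2 differed by 0.35 (-1.04 to 1.74) on day 0 and by -0.51, -0.49, and -0.38 later, and Fmo1 by -0.04, -0.42, -0.93, and -0.48. These intervals leave room for differences of more than 1 on the log2 scale in either direction on at least 1 day, so that equal levels were not shown.

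**Figure D5:**
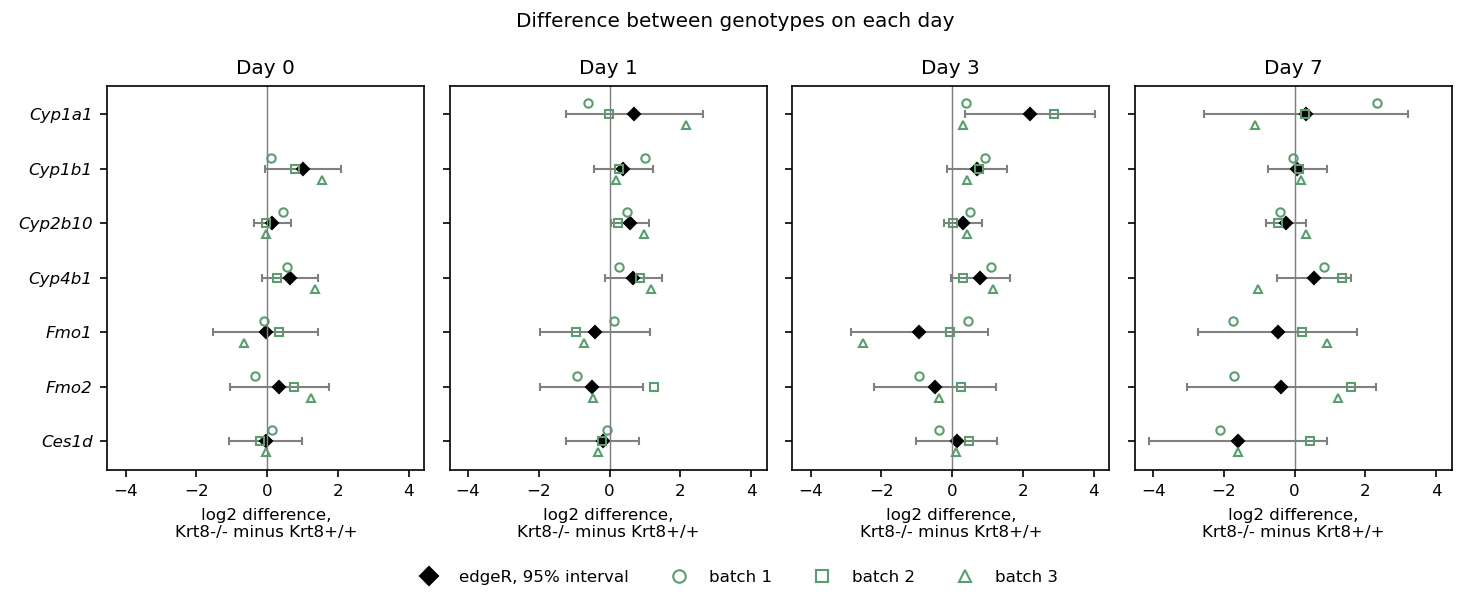
Log2 difference between genotypes (x axis, Krt8-/- minus Krt8+/+) for each gene (y axis) on days 0, 1, 3, and 7. Diamonds and bars are the edgeR estimate and its 95% interval, and open symbols the difference within batches 1 to 3. Cyp1a1 on day 0 is left out because the Krt8-/- libraries had 0 counts. Only Cyp1a1 on day 3 and Cyp2b10 on day 1 had intervals above 0, and neither passed adjustment.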

How the data were processed

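RNA of AEC2s from Krt8+/+ and Krt8-/- mice on days 0, 1, 3, and 7 was measured in 24 libraries. The authors deposited 1 table of expected counts per gene, rounded to whole numbers. The submitters' processing notes name cutadapt 2.3, STAR 2.7.8a, RSEM 1.3.3, and GRCm38 without their roles. Expected counts share reads of similar genes by estimate, so that values of close relatives are uncertain. GENCODE M21 gave a symbol for 55154 identifiers and none for 267, and 5 reporter entries with 0 counts were left out.

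Genes were filtered with filterByExpr (minimum count 10, minimum total 15). One edgeR 4.0.16 quasi-likelihood model (R 4.3.3, TMM) of 8 groups was fitted to all libraries, with 16 residual degrees of freedom and Benjamini-Hochberg adjustment over 18046 genes. The script was tested on simulated data. Log2 CPM used a prior count of 2. Folds over groups without counts used a floor of 3 counts, which covers counting error only. Expression of genes outside the 7 is given for receptors, Por, and the 3 largest changes by day 7 in each direction per list, except for 1 item that is not reported here. Batches in the labels pair libraries by replicate number (correlation of paired deviations -0.0345 to 0.548). No libraries were duplicates (chi-square per gene at least 9.44). DESeq2 1.42.0 was an alternative. Members and lists were chosen with earlier results of these data known.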

Additional observations from a re-analysis of the deposited data

How the results depend on the processing

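Over the alternatives (size factors and test of DESeq2, no filter, batch as a replicate block, only the groups compared, and each batch left out), 769 of 821 values of single genes kept their direction and side of the threshold, 29 were no longer called, 9 became called, and 14 changed sign. The number of the 7 genes called kept within 1.5 times for every comparison with day 0 and between genotypes. For day 3 against day 1 in Krt8+/+ AECs it was 5 and went to 2 to 3 without single batches, and for day 7 against day 3 it was 4 and went to 2 to 4. For day 3 against day 1 in Krt8-/- AECs it was 6, went to 2 to 4 without single batches, and was 2 without the library of batch 2 on day 3, a choice made after the data were seen. The replicate block changed the call of Cyp1a1 on day 3 against day 1 (2.34, edgeR adjusted p = 0.0261) and Fmo2 on day 7 against day 3 (-2.45, adjusted p = 0.0391) in Krt8+/+ AECs and no other. Cyp1a1 on day 7 against day 0 in Krt8-/- AECs was called by DESeq2 (adjusted p = 0.00290) and with no filter (adjusted p = 0.0451). Fewer libraries were tested where batches were left out, and the cause of the other changes was not tested.

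Of the values that changed sign none was called in either fit. Leaving out single batches, the log2 differences of these ranged as follows. In Krt8+/+ AECs, Cyp1a1 on day 7 against day 0 ran from -0.44 to 6.31, Cyp2b10 on day 3 against day 1 from -0.18 to 0.07, and Fmo1 on day 7 against day 3 from -1.87 to 0.37. In Krt8-/- AECs, Fmo1 on day 7 against day 3 ran from -1.64 to 1.10. Between genotypes, Cyp1a1 on days 1, 3, and 7 ran from -0.10 to 1.42, 0.33 to 2.56, and -0.65 to 1.68. Cyp2b10 on day 0 ran from -0.04 to 0.24. Fmo1 on days 0, 3, and 7 ran from -0.29 to 0.13, -2.11 to 0.34, and -1.36 to 0.85. Fmo2 ran from -0.83 to 0.40 on day 1 and -1.33 to 2.98 on day 7. Ces1d ran from -0.12 to 0.04 on day 0 and -0.12 to 0.31 on day 3. Without the Krt8-/- library of batch 2 on day 3, Cyp1a1 (-0.20) and Ces1d (-0.13) changed sign between genotypes on that day. Low counts limit Fmo1 from day 3 on, and Cyp1a1 on days 0 and 7.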
